A study of Mus musculus with 6 samples.

Results

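The genes described here encode the Wnt ligands, their receptors and co-receptors, the secreted inhibitors that hold them back, and the core of the intracellular relay around β-catenin. They were taken by symbol from an array table annotated with 1 gene per probe set. A probe set was a member if its symbol began with Wnt, Fzd, Sfrp, Dkk or Rspo and a digit, or was Lef1, Tcf7l1, Tcf7l2, Axin1, Axin2, Nkd1, Nkd2, Lrp5, Lrp6, Ctnnb1, Apc or Wif1. This gave 54 genes of the 18194 named, read by 112 of the 45101 probe sets. There were 19 Wnt ligands, 4 R-spondins, 11 genes with the letters Fzd, 4 secreted frizzled-related proteins and 4 Dickkopf genes among them. Tcf7 was on the list but had no probe set that met the rule and is not analysed here. The rule reads symbols only, not signals.

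Wnt proteins are lipid-modified secreted signals that bind Frizzled receptors together with the co-receptors Lrp5 and Lrp6. Without a ligand, a complex of Axin and Apc marks β-catenin for destruction. With a ligand, β-catenin accumulates, enters the nucleus and binds the Tcf and Lef factors, which then switch on target genes such as Axin2 and Nkd1 that feed back on the pathway. In the developing hindbrain, Wnt1 from the isthmus is known for its need in forming the midbrain and cerebellum, and Wnt signals also act on dividing precursors and on growing axons.

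The study set cells that expressed Atoh1 early against cells that expressed it late, both taken from rhombomere 1 and the isthmus of Swiss Webster mouse embryos at E14.5. Atoh1 drives neuron formation in the rhombic lip, a strip of precursors that yields cerebellar granule cells and neurons of several hindbrain nuclei. Both groups carried Atoh1-CreER, a tamoxifen-dependent recombinase driven from Atoh1, and the RCE allele that makes EGFP after recombination. They came from Atoh1-CreER fathers and mothers homozygous for RCE. The E10.5-labelled group (3 arrays) came from dams given tamoxifen by oral gavage at E10.5, 4 mg per 35 g of dam. The E13.5-labelled group (3 arrays) came from dams given the same dose at E13.5. Labelled embryos were picked by their fluorescence, the dissected tissue was dissociated with papain and DNase, EGFP-positive cells were collected by FACS, and their total RNA, extracted after freezing the pellets, was read on Affymetrix 430 2.0 arrays. There was no group without tamoxifen. The day of labelling and the time from labelling to collection differed together between the groups and cannot be told apart. The labels do not say whether samples came from separate litters or how many embryos each held. The p-values thus rest on the spread among these 6 samples alone, part of which may be technical.

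Signals are MAS5 intensities on a linear scale, with the trimmed mean of every array at 500, and array medians lay between 97.5 and 111.5. Precision is limited by how few arrays there were. Rank correlations between arrays ran from 0.874 to 0.893 within the E10.5-labelled group, from 0.938 to 0.945 within the E13.5-labelled group and from 0.845 to 0.885 between them. Actb signals near the 3′ end exceeded those near the 5′ end 17.4- to 26.2-fold on E10.5-labelled arrays and 12.9- to 16.1-fold on E13.5-labelled arrays. For Gapdh the groups overlapped, at 10.6- to 13.2-fold on E10.5-labelled arrays and 9.47- to 12.1-fold on E13.5-labelled arrays. Replicate 3 of both groups stood apart in sex-linked signals. Xist was 166 in E10.5-labelled replicate 3 and 8141 or more on the other arrays, and Eif2s3y was 14.1 in E13.5-labelled replicate 3 and 826 or more on the others. Replicates 1 and 2 of both groups carried both signals, so they held cells of both sexes. Replicate 3 of each group thus differed from them in its embryos, and that spread was not only technical. Whether replicates 1 and 2 of a group shared embryos is not given. Atoh1 itself, the check of the labels, read 936, 397 and 738 on E10.5-labelled arrays against 9733, 6819 and 9372 on E13.5-labelled arrays. In sorted bulk samples, fewer cells of a type and less RNA per cell cannot be told apart.

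Testing was confined to probe sets brighter than the median of their array on at least 3 of the 6 arrays. Differences are E10.5-labelled minus E13.5-labelled on the log2 scale, tested with limma and adjusted by Benjamini-Hochberg over all 23491 tested probe sets at a threshold of 0.05. A gene is represented by its brightest tested probe set. Of the 54 genes, 29 were tested and 25 were not. Of the 29, 2 were higher in E10.5-labelled cells, 8 were higher in E13.5-labelled cells and 19 did not pass. Over all 11086 tested genes, 16.2% were higher in E10.5-labelled cells and 13.9% were higher in E13.5-labelled cells. The members' shares were 6.9% and 27.6%. The count higher in E10.5-labelled cells was thus below the background share, and the count higher in E13.5-labelled cells was above it. Counted by probe set, 2 of 46 tested members were higher in E10.5-labelled cells and 15 of 46 were higher in E13.5-labelled cells, or 4.35% and 32.6%. The same calls made up 13.4% and 12.5% of all tested probe sets. The median log2 difference was -0.41 over the tested member genes and -0.03 over all tested genes.

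The filter bears on these counts. Among the tested member probe sets 19 lay above the median on all 6 arrays, while 11 did so on at most 1 E10.5-labelled array and 2 on at most 1 E13.5-labelled array. A gene that passed the filter only through the group in which it was bright had to differ. Leaving out any 1 of the E13.5-labelled arrays left 1 gene higher in E10.5-labelled cells and 3 higher in E13.5-labelled cells. Calls over all probe sets fell too, from 3155 and 2939 to between 1779 and 2049 and between 1158 and 1289. Leaving out E10.5-labelled replicate 1 left 1 gene higher in E10.5-labelled cells, with 2685 such calls over all probe sets. With no filter, 1 of the 54 genes was higher in E10.5-labelled cells (Wnt7a) and 3 were higher in E13.5-labelled cells (Nkd1, Fzd2 and Wif1), or 1.85% and 5.56%. The background without a filter was 4.91% and 3.22% of all genes. By probe set, 2 and 3 of the 112 then passed, or 1.79% and 2.68%, against 3.46% and 2.58% of all probe sets. The share higher in E13.5-labelled cells is thus near the background share by probe set when no filter is used. Of the probe sets that passed, 1 was a very dim probe set of Rspo3 (signals of 5.87 to 19.1 in E10.5-labelled cells against 1.44 to 1.78 in E13.5-labelled cells). E10.5-labelled replicate 2 had the lowest of the 3 E10.5-labelled signals in 25 of the 46 tested member probe sets, or 54.3%, against 37.1% over all tested probe sets.

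**Figure D1:**
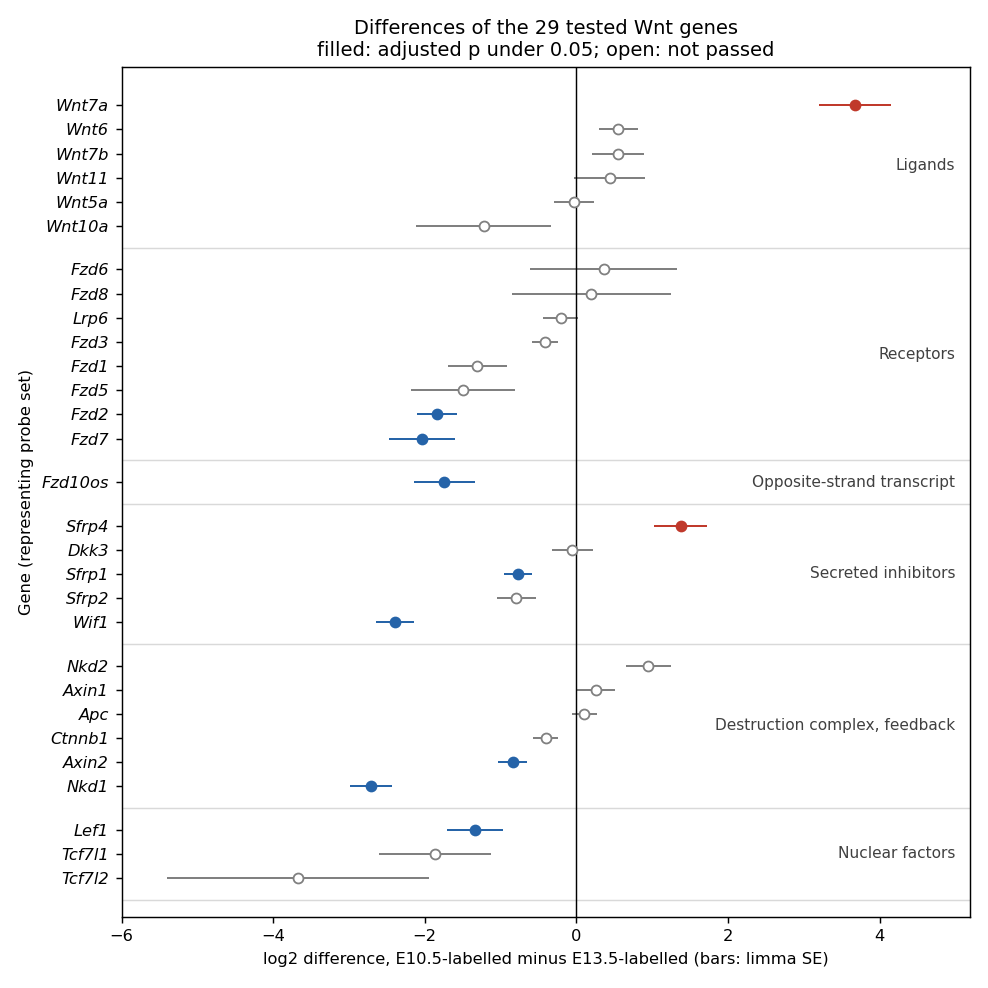
Log2 difference (E10.5-labelled minus E13.5-labelled, x axis) of the representing probe set of each of the 29 tested member genes, grouped by role down the page, with bars for limma's standard error. Filled points passed an adjusted p of 0.05 (red higher, blue lower in E10.5-labelled cells) and open points did not. Wnt7a and Sfrp4 lie to the right of 0, and the 8 other called genes lie to the left.

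Among the ligands, Wnt7a was the 1 gene of 6 tested that passed. That share of 16.7% is near the 16.2% of all tested genes that were higher in E10.5-labelled cells. Wnt7a, a ligand known in the cerebellum for a role in synapse formation, read 512, 278 and 463 on E10.5-labelled arrays against 41.4, 46.9 and 16.2 on E13.5-labelled arrays. The groups were far apart. All 3 E13.5-labelled signals lay below their array medians, so the probe set was tested only through its E10.5-labelled signals. The means were 418 ± 123 in E10.5-labelled cells and 34.8 ± 16.4 in E13.5-labelled cells (SD, n = 3 each), a log2 difference of 3.68 ± 0.47 (SE; limma, adjusted p = 0.00385). Because the low signals have no firm level, the fold is best read as a bound. With every signal below its array median set to that median, Wnt7a was at least 3.93-fold higher in E10.5-labelled cells (limma, adjusted p = 0.00124). Setting the 3 E13.5-labelled signals to the medians removed their own spread, so this smaller adjusted p adds no support. The call held under all 15 alternatives that tested it, with an adjusted p of at most 0.0363. The other 2 probe sets of Wnt7a were too dim to be tested.

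The other 5 tested ligands did not pass. Wnt7b, a close relative of Wnt7a, read 337, 288 and 172 on E10.5-labelled arrays against 127, 220.3 and 190.2 on E13.5-labelled arrays, so the groups overlapped (log2 difference 0.55; limma, adjusted p = 0.280). Wnt6 had a log2 difference of 0.56 (adjusted p = 0.164), Wnt11 of 0.44 (adjusted p = 0.526) and Wnt10a of -1.22 (adjusted p = 0.352). Wnt5a, which is known mainly for signalling that does not pass through β-catenin, had a pair of tested probe sets that did not tell the same story. The brighter by mean log2 signal read 147, 106 and 146 in E10.5-labelled cells against 114, 118 and 183 in E13.5-labelled cells, a log2 difference of -0.03 (adjusted p = 0.937). The other read 157, 7.13 and 5.05 in E10.5-labelled cells against 291, 337 and 293 in E13.5-labelled cells (log2 difference -4.10, adjusted p = 0.0597). There the E10.5-labelled arrays disagreed among themselves, and without E10.5-labelled replicate 1 the adjusted p was 0.00239.

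The remaining 17 ligands were not tested: Wnt1, Wnt2, Wnt2b, Wnt3, Wnt3a, Wnt4, Wnt5b, Wnt8a, Wnt8b, Wnt9a, Wnt9b, Wnt10b, Wnt16 and the 4 R-spondins Rspo1 to Rspo4, which amplify Wnt signals by sparing Frizzled from turnover. The signals of their representing probe sets lay between 2.67 and 195, with a median of 29.3. Wnt1, the ligand of the isthmus, was below the array median on all 6 arrays. Wnt4 read 157, 151 and 91.7 on E10.5-labelled arrays against 34.5, 42.6 and 71.5 on E13.5-labelled arrays. Its groups did not overlap, but only 2 of the 6 signals were above their array median and it was not tested.

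**Figure D2:**
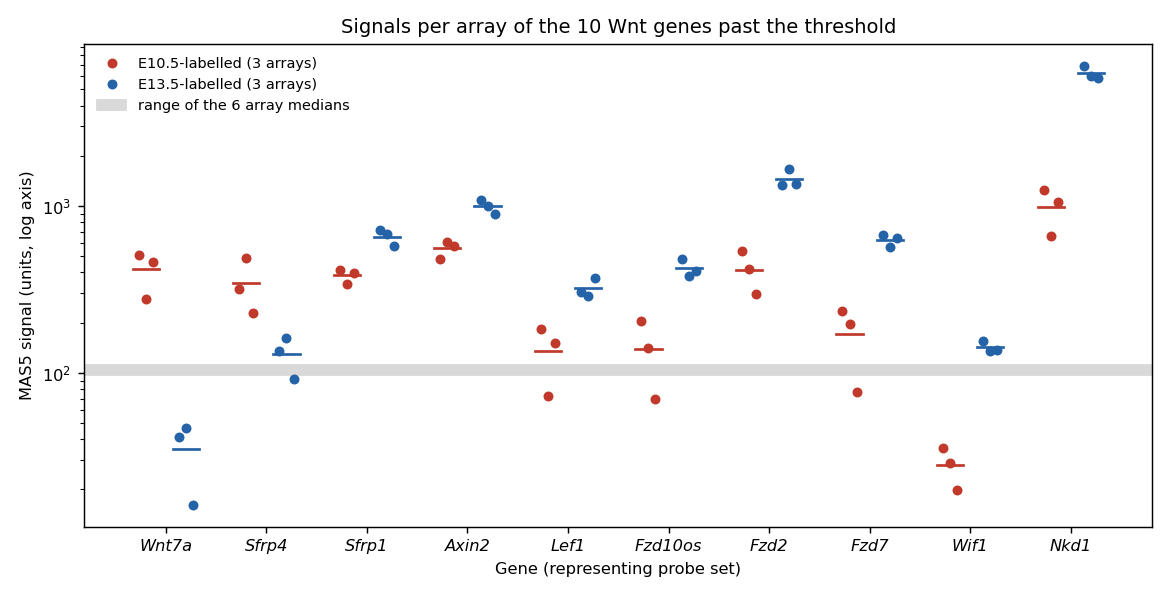
Signals (log axis, MAS5 units) of the 10 called member genes on the 3 E10.5-labelled arrays (red, left for each gene) and the 3 E13.5-labelled arrays (blue, right), 1 point per array, with a line at the group mean and a grey band over the range of array medians. No pair of groups overlaps, and the Wnt7a points of E13.5-labelled cells and the Wif1 points of E10.5-labelled cells lie below the array medians of 97.5 to 111.5.

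The Frizzled genes encode the seven-pass receptors that bind Wnt through a cysteine-rich domain. Of 8 tested receptors and co-receptors, Fzd2 and Fzd7 were higher in E13.5-labelled cells, none was higher in E10.5-labelled cells and 6 did not pass. The shares were 25% and 0%, beside 13.9% and 16.2% of all tested genes. Fzd2 read 535, 419 and 295 on E10.5-labelled arrays against 1341, 1672 and 1348 on E13.5-labelled arrays. The means were 416 ± 120 in E10.5-labelled cells and 1454 ± 189 in E13.5-labelled cells (SD, n = 3 each), so the gene was 3.58-fold lower in E10.5-labelled cells (log2 difference -1.84 ± 0.27 (SE); limma, adjusted p = 0.00564). Both other probe sets of Fzd2 were also lower on every E10.5-labelled array, but one of them read 487, 5.60 and 180 there, and neither passed (adjusted p = 0.146 and 0.0566). Fzd2 kept its call without any single array and lost it without replicate 3 of both groups (adjusted p = 0.0518).

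Fzd7 read 236, 197 and 76.9 on E10.5-labelled arrays against 668, 572 and 639.5 on E13.5-labelled arrays. The lowest E13.5-labelled signal was well above the highest E10.5-labelled one. The log2 difference was -2.03 ± 0.43 (SE; limma, adjusted p = 0.0196), or 4.09-fold lower in E10.5-labelled cells. The adjusted p was 0.0717, 0.0599 or 0.0717 when E13.5-labelled replicate 1, 2 or 3 was left out. Fzd10os, whose symbol marks a transcript of the strand opposite Fzd10 and not a receptor, read 203, 141 and 69.9 in E10.5-labelled cells against 479.5, 383 and 410.5 in E13.5-labelled cells. It was 3.35-fold lower in E10.5-labelled cells (log2 difference -1.74 ± 0.40 (SE); limma, adjusted p = 0.0248) and reached 0.0883, 0.0705 or 0.0814 without E13.5-labelled replicate 1, 2 or 3. Fzd10 itself was too dim to be tested.

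Fzd3 and Fzd1 were among the brightest members that did not pass. Fzd3, a receptor known for guiding axon tracts in the hindbrain and forebrain, read 8656, 7522 and 7317 on E10.5-labelled arrays against 9762, 10504.5 and 10899.6 on E13.5-labelled arrays. These groups did not overlap, but the 95% interval of the log2 difference ran from -0.82 to just over 0 (limma, adjusted p = 0.130). The other 3 tested probe sets of Fzd3 had log2 differences between -1.08 and -2.26, and none passed. Fzd1 read 649, 335 and 789.9 in E10.5-labelled cells against 1868, 1098 and 1263 in E13.5-labelled cells. Its groups did not overlap either, and it fell just short of the threshold (log2 difference -1.31 ± 0.38 (SE); adjusted p = 0.0515). Without E10.5-labelled replicate 3 the adjusted p of Fzd1 was 0.0437.

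The receptors Fzd5, Fzd6 and Fzd8 had overlapping groups, with adjusted p-values of 0.161, 0.813 and 0.908. The co-receptor Lrp6 read 559.8, 418 and 446 on E10.5-labelled arrays against 488, 679 and 483 on E13.5-labelled arrays. The groups overlapped, and the interval of the log2 difference ran from -0.76 to 0.34 (adjusted p = 0.539), so a change of either sign within it was not detectable with these arrays. Across the 7 tested Frizzled genes, 12 probe sets were tested. Of these, 10 had a difference below 0 and 2 had one above 0. In 7 every E13.5-labelled signal exceeded every E10.5-labelled one, as in 24.8% of all tested probe sets. The 7 are not separate genes, as Fzd2 and Fzd3 each gave more than 1. Some probe sets of Fzd2 and Fzd3, and those of Fzd5 and Fzd7, were favoured by the filter. They had all 3 E13.5-labelled signals but only 1 or 2 E10.5-labelled signals above the array median. Fzd4, Fzd9, Fzd10 and Lrp5 were not tested, with signals between 2.22 and 117.

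**Figure D3:**
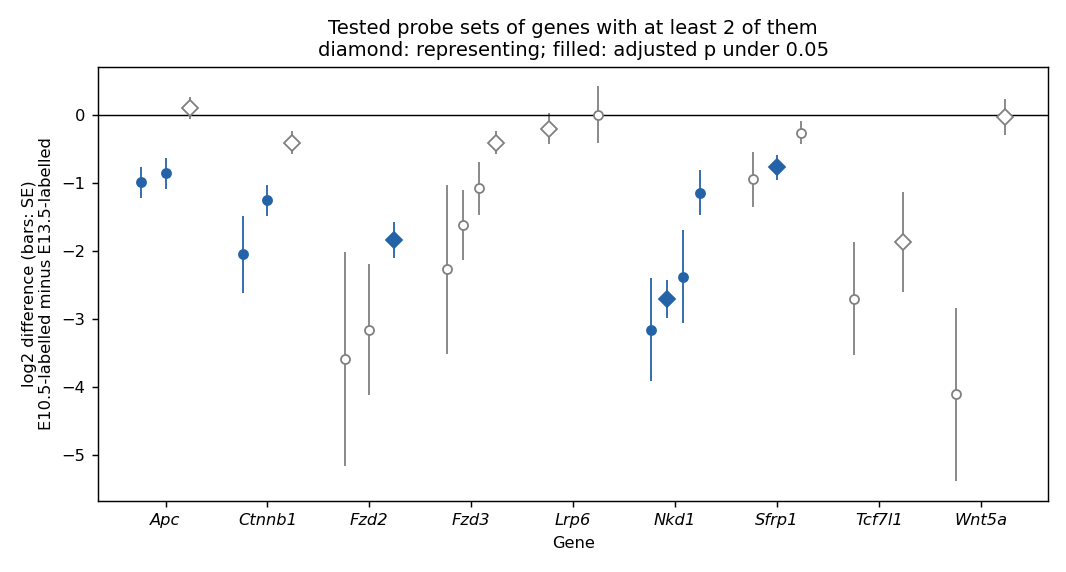
Log2 difference (E10.5-labelled minus E13.5-labelled, y axis) of every tested probe set of the 9 member genes that had at least 2, grouped by gene on the x axis, with bars for limma's standard error. Diamonds are the probe sets that represent the gene, and filled points passed an adjusted p of 0.05. The 4 probe sets of Nkd1 all lie below -1 and all passed, but 3 of them had only 1 E10.5-labelled signal above the array median. Wnt5a has 1 point near 0 and 1 near -4.

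The secreted inhibitors bind Wnt ligands or their co-receptors outside the cell. Of 5 tested, Sfrp4 was higher in E10.5-labelled cells, Wif1 and Sfrp1 were higher in E13.5-labelled cells, and Sfrp2 and Dkk3 did not pass. The shares were 20% and 40%, beside 16.2% and 13.9% of all tested genes, so the first is near the background share. With no filter, 0 and 1 of the 9 secreted inhibitors were called in the same 2 directions. Sfrp4, a decoy that carries a Frizzled-like domain, read 318, 485 and 228 on E10.5-labelled arrays against 134, 162 and 92.0 on E13.5-labelled arrays. The groups did not overlap, and the means were 343 ± 131 in E10.5-labelled cells and 129.5 ± 35.4 in E13.5-labelled cells (SD, n = 3 each). The log2 difference of Sfrp4 was 1.38 ± 0.35 (SE; limma, adjusted p = 0.0348), or 2.60-fold higher in E10.5-labelled cells. Its adjusted p was 0.0963, 0.0626 or 0.116 without E13.5-labelled replicate 1, 2 or 3, and 0.0699 or 0.0592 without E10.5-labelled replicate 1 or 2.

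Wif1, Wnt inhibitory factor, binds Wnt proteins directly. It read 35.3, 28.9 and 19.8 on E10.5-labelled arrays against 155, 136 and 138 on E13.5-labelled arrays. All 3 E10.5-labelled signals lay below their array medians and all 3 E13.5-labelled signals above theirs, so Wif1 was tested only through its E13.5-labelled signals. The log2 difference was -2.39 ± 0.25 (SE; limma, adjusted p = 0.00240). With signals below the array median set to it, it was at least 1.33-fold lower in E10.5-labelled cells and the call was lost (adjusted p = 0.113).

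Sfrp1, another Frizzled-like decoy, read 414, 341 and 397 in E10.5-labelled cells against 714, 676 and 579 in E13.5-labelled cells. It was 1.71-fold lower in E10.5-labelled cells with no overlap (log2 difference -0.77 ± 0.18 (SE); limma, adjusted p = 0.0283). Its adjusted p was 0.104, 0.103 or 0.0710 without E13.5-labelled replicate 1, 2 or 3 and 0.0514 without E10.5-labelled replicate 2. The other tested probe sets of Sfrp1 had log2 differences of -0.26 and -0.95 and did not pass (adjusted p = 0.319 and 0.138). Sfrp2 read 185, 211 and 327.5 in E10.5-labelled cells against 396, 387 and 433 in E13.5-labelled cells. Its groups did not overlap and it did not pass (log2 difference -0.79, interval -1.42 to -0.17, adjusted p = 0.0671). Dkk3, a divergent member of a family that blocks Lrp co-receptors, read 375, 328 and 238 in E10.5-labelled cells against 404, 256 and 316 in E13.5-labelled cells. The groups overlapped (log2 difference -0.05, interval -0.70 to 0.59, adjusted p = 0.904). Dkk1, Dkk2, Dkk4 and Sfrp5 were not tested, with signals between 1.08 and 241.

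Of the destruction complex and the feedback genes, Nkd1 and Axin2 were higher in E13.5-labelled cells and the other 4 genes did not pass. The shares higher in E13.5-labelled and E10.5-labelled cells were 33.3% and 0% of 6 genes, beside 13.9% and 16.2% of all tested genes. Nkd1, an inhibitor that binds Dishevelled and is itself switched on by Wnt signals in several tissues, had the largest difference of the 6. It read 1249, 661 and 1063 on E10.5-labelled arrays against 6914, 6008 and 5844 on E13.5-labelled arrays. Every E13.5-labelled signal was several times the highest E10.5-labelled one. The means were 991 ± 300.4 in E10.5-labelled cells and 6255 ± 577 in E13.5-labelled cells (SD, n = 3 each), so the gene was 6.51-fold lower in E10.5-labelled cells (log2 difference -2.70 ± 0.28 (SE); limma, adjusted p = 0.00222). The call held under all 16 alternatives, with log2 differences between -2.90 and -2.44 and an adjusted p of at most 0.0408.

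All 4 probe sets of Nkd1 passed in the same direction, with log2 differences from -3.15 to -1.14. The 3 dimmer ones had all 3 E13.5-labelled signals but only 1 E10.5-labelled signal above the array median, so the filter favoured them. With no filter none of these 3 passed (limma, adjusted p = 0.130, 0.144 and 0.0888). Each also lost its call when any 1 of the E13.5-labelled arrays was left out, with adjusted p-values between 0.0805 and 0.139. Of these 3, 2 also lost it without E10.5-labelled replicate 1 (0.0615 and 0.0565), and the last lost it without E10.5-labelled replicate 3 (0.0633). Axin2, the feedback scaffold often used as a readout of β-catenin signalling, read 484, 611 and 575 on E10.5-labelled arrays against 1094, 1001 and 893 on E13.5-labelled arrays. The means were 557 ± 65.8 in E10.5-labelled cells and 996 ± 100.3 in E13.5-labelled cells (SD, n = 3 each). The groups did not overlap, and Axin2 was 1.79-fold lower in E10.5-labelled cells (log2 difference -0.84 ± 0.19 (SE); limma, adjusted p = 0.0228). Its adjusted p was 0.0884, 0.0835 or 0.0661 without E13.5-labelled replicate 1, 2 or 3.

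Ctnnb1, which encodes β-catenin, did not pass by its brightest probe set. That probe set read 20729, 18577 and 21099.5 on E10.5-labelled arrays against 28248, 26639.5 and 25159 on E13.5-labelled arrays, with no overlap (log2 difference -0.41, interval from -0.81 to just under 0, adjusted p = 0.125). The other tested probe sets of Ctnnb1 were lower in E10.5-labelled cells and passed. One read 560.3, 522 and 758 in E10.5-labelled cells against 1231, 1438 and 1699 in E13.5-labelled cells (log2 difference -1.25, limma, adjusted p = 0.0119). The other read 72.5, 35.2 and 182 in E10.5-labelled cells against 318, 329 and 316 in E13.5-labelled cells (log2 difference -2.05, adjusted p = 0.0438). Only 1 E10.5-labelled signal of the latter lay above the array median, so the filter favoured it. With no filter neither of these probe sets passed (adjusted p = 0.0616 and 0.123). Without E13.5-labelled replicate 3 their adjusted p-values were 0.0558 and 0.122, and the last also exceeded the threshold without E10.5-labelled replicate 1 (0.0951) or 2 (0.0523) and without E13.5-labelled replicate 1 (0.121) or 2 (0.119).

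Apc, the scaffold of the destruction complex, had probe sets whose differences lay on either side of 0. Its brightest probe set read 9271, 9218 and 9358 on E10.5-labelled arrays against 8256, 9199 and 8449 on E13.5-labelled arrays. The groups barely separated and the difference did not pass (log2 difference 0.11, interval -0.28 to 0.49, adjusted p = 0.662). A dimmer probe set read 3063, 2875 and 4355 in E10.5-labelled cells against 5764, 5826 and 6841 in E13.5-labelled cells and passed in the other direction (log2 difference -0.86, adjusted p = 0.0365). The third tested Apc probe set, whose E10.5-labelled signals all lay below the array median, had a log2 difference of -0.99 (adjusted p = 0.0238), but it was tested only through its E13.5-labelled signals. With no filter neither of these probe sets passed (adjusted p = 0.139 and 0.103). Both also lost the call without any 1 of the E13.5-labelled arrays, with adjusted p-values of 0.0681 to 0.134, and without E10.5-labelled replicate 1 (0.0786 and 0.0532), and the first also without E10.5-labelled replicate 2 (0.0698). Axin1, the partner of Apc that is made in most cells, read 579.8, 495 and 791 in E10.5-labelled cells against 508, 429.9 and 607.5 in E13.5-labelled cells. Its groups overlapped (log2 difference 0.26, interval -0.35 to 0.86, adjusted p = 0.487). Nkd2, the relative of Nkd1, read 212, 138 and 260.4 in E10.5-labelled cells against 122, 105 and 82.6 in E13.5-labelled cells. The groups did not overlap and Nkd2 did not pass (log2 difference 0.95, adjusted p = 0.0607), although without E10.5-labelled replicate 2 its adjusted p was 0.0236.

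When a gene was instead read as the mean log2 signal over its tested probe sets, Ctnnb1 (adjusted p = 0.0165), Fzd1 (0.0378), Fzd3 (0.0448), Apc (0.0484) and Sfrp2 (0.0494) joined the genes higher in E13.5-labelled cells, and Nkd2 (0.0447) joined those higher in E10.5-labelled cells. The fit was then run anew on fewer features, and adjusted p-values moved even for genes with 1 probe set. The cause of that move was not tested. The totals became 13 genes higher in E13.5-labelled cells and 3 higher in E10.5-labelled cells. Calls over all genes were not counted under this reading, so these totals have no background share. The shares of 13.9% and 16.2% given above come from a different fit.

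The nuclear factors Lef1, Tcf7l1 and Tcf7l2 bring β-catenin to DNA, and Tcf7l1 is known mainly as a repressor. Lef1 read 184, 72.6 and 152 on E10.5-labelled arrays against 304, 289 and 369 on E13.5-labelled arrays. The groups did not overlap, and Lef1 was 2.52-fold lower in E10.5-labelled cells (log2 difference -1.33 ± 0.37 (SE); limma, adjusted p = 0.0442). Its adjusted p was 0.116, 0.106 or 0.142 without E13.5-labelled replicate 1, 2 or 3 and 0.0642 without E10.5-labelled replicate 3. Tcf7l1 read 212, 28.2 and 125 in E10.5-labelled cells against 443, 249.9 and 327 in E13.5-labelled cells by its brighter probe set, and did not pass (log2 difference -1.86, adjusted p = 0.115). The other probe set of Tcf7l1 read 96.4, 14.2 and 137 in E10.5-labelled cells against 394, 316 and 412 in E13.5-labelled cells (log2 difference -2.70, adjusted p = 0.0589), and its adjusted p was 0.0101 without E10.5-labelled replicate 2.

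Tcf7l2 read 129, 0.778 and 18.6 in E10.5-labelled cells against 167, 171 and 136 in E13.5-labelled cells. The E10.5-labelled arrays spread so widely that the log2 difference of -3.68 had an SE of 1.73 and did not pass (adjusted p = 0.170). In each of the 4 tested probe sets of these 3 factors, all E13.5-labelled signals were above all E10.5-labelled ones. These 4 reached the test with all 3 E13.5-labelled signals but only 1 or 2 E10.5-labelled signals above the array median, so the separation describes probe sets that the filter favoured. Among the 4 untested probe sets of the same factors, the groups overlapped in 3. Of the 46 tested member probe sets, 27 had all E13.5-labelled signals above all E10.5-labelled ones and 5 the opposite, or 58.7% and 10.9%. Over all tested probe sets the shares were 24.8% and 22.1%.

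Tcf and Lef proteins bind DNA at sites whose best-known forms are CTTTGAT and CTTTGAA. Because feedback genes of the pathway were among the called members, the 250 bases before the annotated starts were read from RefSeq (GRCm38.p6) and searched on both strands, including the reverse complement of each form. Of the member genes 35 had at least 1 start in the table, with 43 windows in all. Either 7-letter form stood in 3 of the 43 windows, those of Wnt11, Dkk1 and 1 of the starts of Wnt5b, and in 7.48% of all 32851 windows. None of the 9 windows of 6 called genes held one. The 5-letter core CTTTG, which both forms contain, stood in 20 of the 43 member windows, in 6 of the 9 windows of called genes and in 48.6% of all windows. The 9 windows are not separate, as several are starts of Lef1 and some of those overlap. By gene, Fzd7, Lef1 and Wif1 had a window with the core, and Wnt7a, Nkd1 and Axin2 did not. The windows of Wnt7a, the ligand higher in E10.5-labelled cells, and of Nkd1, Axin2 and Lef1, higher in E13.5-labelled cells, are printed with the core (CTTTG, or CAAAG where it lies on the other strand) in capitals. They are chr6:91411354-91411603 on the minus strand, chr8:88527383-88527632 on the plus strand, chr11:108920099-108920348 on the plus strand and, for the first of the Lef1 starts, chr3:131110047-131110296 on the plus strand.
Wnt7a: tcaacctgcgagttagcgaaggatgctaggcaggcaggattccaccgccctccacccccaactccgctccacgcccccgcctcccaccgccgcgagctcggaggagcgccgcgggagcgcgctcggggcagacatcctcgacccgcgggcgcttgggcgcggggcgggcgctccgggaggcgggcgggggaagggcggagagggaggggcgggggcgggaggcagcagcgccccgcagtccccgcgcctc
Nkd1: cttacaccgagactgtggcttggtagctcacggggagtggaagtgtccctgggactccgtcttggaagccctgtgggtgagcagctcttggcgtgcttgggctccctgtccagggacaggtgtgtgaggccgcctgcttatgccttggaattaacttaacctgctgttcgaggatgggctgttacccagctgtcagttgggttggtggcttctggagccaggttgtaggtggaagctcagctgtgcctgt
Axin2: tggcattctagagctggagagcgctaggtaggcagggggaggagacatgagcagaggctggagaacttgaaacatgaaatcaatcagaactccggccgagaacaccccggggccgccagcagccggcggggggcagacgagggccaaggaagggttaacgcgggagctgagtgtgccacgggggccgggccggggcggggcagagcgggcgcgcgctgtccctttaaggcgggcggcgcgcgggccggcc
Lef1: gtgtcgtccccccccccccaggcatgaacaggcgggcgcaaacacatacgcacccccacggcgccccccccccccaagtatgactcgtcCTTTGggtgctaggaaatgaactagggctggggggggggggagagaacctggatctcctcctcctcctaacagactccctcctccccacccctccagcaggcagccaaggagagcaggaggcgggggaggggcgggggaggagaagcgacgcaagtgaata
Only the Lef1 window of these 4 held the core. A match is a run of letters and not a tested site, and windows without one say nothing of sites elsewhere.

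Other genes of the pathway were taken from 6 lists by role. Of 82 tested, 12 were higher in E10.5-labelled cells, 19 were higher in E13.5-labelled cells and 51 did not pass, with a median log2 difference of 0.08. These counts are 14.6% and 23.2% of the 82, beside 16.2% and 13.9% of all tested genes, so the first is near the background share. Among genes for ligand processing and modulation at the surface, 1 of 9 was higher in E10.5-labelled cells (11.1%) and 5 were higher in E13.5-labelled cells (55.6%). Wls, the carrier that brings Wnt proteins to the cell surface, read 238, 71.0 and 138 on E10.5-labelled arrays against 898, 631 and 805 on E13.5-labelled arrays, and was 5.81-fold lower in E10.5-labelled cells (limma, adjusted p = 0.0106). Draxin, an axon guidance protein that antagonises Wnt signals, read 3598, 2173 and 1677 in E10.5-labelled cells against 8870.3, 8829 and 10203 in E13.5-labelled cells (3.94-fold lower in E10.5-labelled cells, adjusted p = 0.00698). Gpc4, a heparan sulphate proteoglycan of the cell surface, was 4.70-fold lower in E10.5-labelled cells (adjusted p = 0.0102). Tpbg, a surface protein that inhibits Wnt signals in zebrafish, was 2.41-fold higher in E10.5-labelled cells (adjusted p = 0.0436), a call lost in 4 of 6 refits that left out 1 array (adjusted p = 0.0877 to 0.144). Of the R-spondin receptors and receptor ligases, 2 were tested, and Lgr4, an R-spondin receptor, read 1932, 1831 and 1297 in E10.5-labelled cells against 329, 466 and 484 in E13.5-labelled cells (3.95-fold higher in E10.5-labelled cells, adjusted p = 0.00395).

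Co-receptors and genes of planar polarity counted 12 tested, with 2 higher in E10.5-labelled cells and 1 higher in E13.5-labelled cells. The shares were 16.7% and 8.33%, beside 16.2% and 13.9% of all tested genes, so the first is near the background share and the second below it. Ror1, a receptor kinase for Wnt5a, read 124, 158 and 238 on E10.5-labelled arrays against 867, 736 and 666 on E13.5-labelled arrays (4.49-fold lower in E10.5-labelled cells; limma, adjusted p = 0.00416). Prickle1, a core polarity protein, read 719, 549 and 600.3 in E10.5-labelled cells against 275, 195 and 227 in E13.5-labelled cells (2.69-fold higher in E10.5-labelled cells, adjusted p = 0.00622). Vangl1, another polarity protein, was 1.77-fold higher in E10.5-labelled cells (adjusted p = 0.0430), and each of the 6 refits without 1 array lost that call (adjusted p = 0.0524 to 0.141).

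Of 25 tested cytoplasmic transducers, 6 were higher in E10.5-labelled cells, 2 were higher in E13.5-labelled cells and 17 did not pass. The shares were 24% and 8%, beside 16.2% and 13.9% of all tested genes. Cxxc4, also called Idax, an inhibitor that binds Dishevelled, read 4159, 3322 and 3789.5 on E10.5-labelled arrays against 278, 304 and 257 on E13.5-labelled arrays. That was 13.4-fold higher in E10.5-labelled cells (limma, adjusted p = 0.00113) and the groups were far apart. Dact1, another Dishevelled-binding modulator, read 3654, 3783 and 2965 in E10.5-labelled cells against 686, 1014 and 1051 in E13.5-labelled cells (3.83-fold higher in E10.5-labelled cells, adjusted p = 0.00343). Tnks2, a tankyrase that marks Axin for turnover, was 1.95-fold higher in E10.5-labelled cells (adjusted p = 0.0316). Amer2, an Apc-binding protein, and Cxxc5, a relative of Cxxc4, were 2.58-fold and 1.74-fold lower in E10.5-labelled cells (adjusted p = 0.00921 and 0.0256).

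Of 21 tested nuclear cofactors, 1 was higher in E10.5-labelled cells and 3 were higher in E13.5-labelled cells. These were 4.76% and 14.3%, beside 16.2% and 13.9% of all tested genes, so the second is near the background share. Nlk, a kinase that acts on Tcf and Lef factors, was 1.60-fold higher in E10.5-labelled cells (limma, adjusted p = 0.0269). The corepressor Tle1, the deacetylase Hdac1 and the corepressor subunit Tbl1x were 2.09-fold, 1.96-fold and 1.63-fold lower in E10.5-labelled cells (adjusted p = 0.0205, 0.0144 and 0.0496). Among 13 tested genes known elsewhere as Wnt targets, 8 were higher in E13.5-labelled cells and 1 was higher in E10.5-labelled cells, or 61.5% and 7.69%, beside 13.9% and 16.2% of all tested genes. Several of these also belong to other pathways or to the cell cycle, and the list's Tcf4 is an E protein, not a partner of β-catenin.

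Sp5, a zinc finger factor that responds to Wnt in many embryonic tissues, read 261, 122 and 36.0 on E10.5-labelled arrays against 1337, 931 and 973 on E13.5-labelled arrays (10.2-fold lower in E10.5-labelled cells; limma, adjusted p = 0.0181). Without E13.5-labelled replicate 1, 2 or 3 its adjusted p was 0.0692, 0.0559 or 0.0616. Snai2, a factor of migrating cells, read 26.3, 22.8 and 22.5 in E10.5-labelled cells against 556, 504 and 344 in E13.5-labelled cells. All 3 E10.5-labelled signals of Snai2 lay below their array medians, so it was tested only through its E13.5-labelled signals. With the E10.5-labelled signals set to the median, Snai2 was at least 4.29-fold lower in E10.5-labelled cells (limma, adjusted p = 0.000577). That step removed the spread of the E10.5-labelled signals, so this adjusted p adds no support. Ccnd2, a cyclin of the G1 phase, read 2929, 1599 and 2149 in E10.5-labelled cells against 17215, 15464 and 13347 in E13.5-labelled cells (7.07-fold lower in E10.5-labelled cells, adjusted p = 0.00194). Myc read 523, 570.0 and 499.9 in E10.5-labelled cells against 289, 115 and 219 in E13.5-labelled cells and was higher in E10.5-labelled cells (2.73-fold, adjusted p = 0.0300), a call lost without any 1 of the E10.5-labelled arrays or E13.5-labelled replicate 3 (adjusted p = 0.0596 to 0.0814). Of the 21 other pathway genes named here, 11 kept their call whichever single array was left out. The 10 that did not were Tpbg, Vangl1, Tnks2, Tbl1x, Myc, Cxxc5, Nlk, Tle1, Hdac1 and Sp5.

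**Figure D4:**
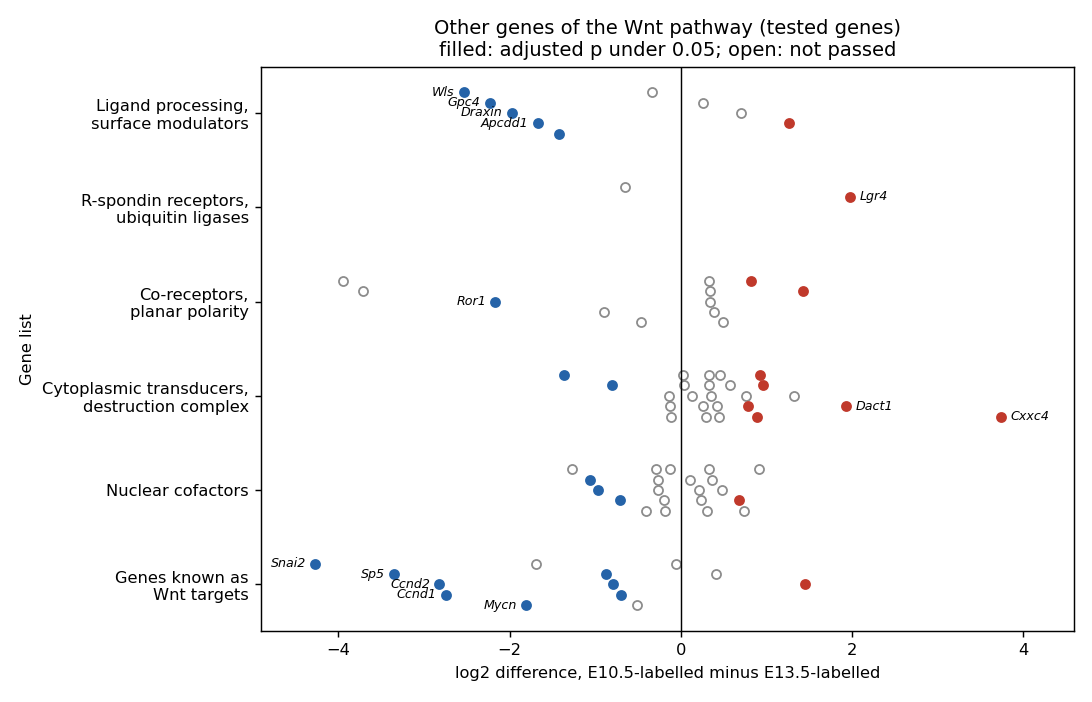
Log2 difference (E10.5-labelled minus E13.5-labelled, x axis) of each tested gene of the 6 lists of other pathway genes, 1 point per gene, with a row for each list. Filled points passed an adjusted p of 0.05 (red higher, blue lower in E10.5-labelled cells), open points did not, and the highest and lowest points are Cxxc4 at 3.75 and Snai2 at -4.27.

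Markers of cell state and of some other cell types also differed between the groups. All 6 tested markers of cycling cells were higher in E13.5-labelled cells, with summed signals of 4292 to 5433 on E10.5-labelled arrays against 37334 to 39343 on E13.5-labelled arrays. Of 8 markers of postmitotic neurons, 4 were higher in E10.5-labelled cells and none passed the other way, with sums of 91180.4 to 96858 on E10.5-labelled arrays against 49308 to 54257 on E13.5-labelled arrays. Radial glia and astrocyte precursor markers split, with 3 of 8 higher in E10.5-labelled cells and 2 higher in E13.5-labelled cells (sums 22644 to 25156 on E10.5-labelled arrays against 29891 to 36395 on E13.5-labelled arrays). Choroid plexus and roof plate markers summed to 585 to 679 on E10.5-labelled arrays against 2466 to 3641 on E13.5-labelled arrays, with 1 of 3 tested higher in E13.5-labelled cells and Kcne2, Aqp1 and Folr1 below the median on all 6 arrays. The largest part of the sum on each E13.5-labelled array was Otx2. Otx2 read 215, 142 and 223 on E10.5-labelled arrays against 2193, 2037 and 1682 on E13.5-labelled arrays. Ttr read 1547 on E13.5-labelled replicate 3 and 151 or less on every other array. Purkinje and GABAergic markers summed to 2281 to 3626 on E10.5-labelled arrays against 876 to 1254 on E13.5-labelled arrays, with 3 of 5 higher in E10.5-labelled cells. For oligodendrocyte markers the sums were 3571 to 3944 on E10.5-labelled arrays against 1535 to 2043 on E13.5-labelled arrays, with 2 of 5 higher in E10.5-labelled cells and 1 higher in E13.5-labelled cells. Microglia and blood markers summed to 893 to 5122 on E10.5-labelled arrays against 502 to 719 on E13.5-labelled arrays, with 1 of 2, Csf1r, higher in E10.5-labelled cells. The top of the first range was almost all Hbb-y, which read 4657 on E10.5-labelled replicate 3 and lay far below the array median on the other E10.5-labelled arrays. Markers of meninges summed to 598 to 1976 on E10.5-labelled arrays against 792 to 1149 on E13.5-labelled arrays, with 1 of 3 tested, Pdgfra, higher in E13.5-labelled cells. The same Pdgfra probe set is the 1 oligodendrocyte marker higher in E13.5-labelled cells, so it was counted in both lists. Col1a2 and Col3a1, the other tested markers of meninges, had log2 differences of 0.61 and 0.66 and did not pass. Endothelial markers summed to 973 to 3409 on E10.5-labelled arrays against 722 to 2608 on E13.5-labelled arrays, with none of 6 called and Pecam1 and Cdh5 below the median on all 6 arrays. Midbrain and isthmus markers summed to 586 to 746 on E10.5-labelled arrays against 356 to 656 on E13.5-labelled arrays, with none of 2 called. Of the labelled lineage, 2 of 8 markers were higher in E10.5-labelled cells and 4 were higher in E13.5-labelled cells (sums 38102 to 40971 on E10.5-labelled arrays against 65084 to 70004 on E13.5-labelled arrays). The part of cell cycle state or of other cell types in the differences of the Wnt pathway genes was not tested.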

How the data were processed

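The values are intensities as deposited, 1 MAS5 signal per probe set and array; MAS5 is named in the submitters' processing notes, and the sources used here give neither its version nor its detection calls, nor whether samples were pooled. MAS5 subtracts mismatch signals, so low values spread widely on the log scale. Gene names came from the platform annotation: 34958 probe sets had 1 symbol, 932 had several and 9211 had none, and the 64 control probe sets were left out.

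Log2 signals were fitted with limma 3.58.1 (lmFit, eBayes) in R 4.3.3, two-sided, with Benjamini-Hochberg adjustment over all tested probe sets. A fold is the ratio of geometric mean signals. With values per array were named every member gene whose representing probe set passed, up to 8 of the brightest others above the median on all 6 arrays, up to 3 per direction in each list of other pathway genes, and Atoh1; further members were named after their values were seen. The search for the 5-letter core was added after the 7-letter search. The members, lists and tests were chosen with earlier results of these data known. The fit was tested on simulated data. Alternatives were no filter, a filter on the mean or at the 70th percentile, quantile normalization, median centring, an offset of 5.97, a floor at the array median, other eBayes settings, the mean over probe sets, the replicate number as a block and leaving out each array.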

Additional observations from a re-analysis of the deposited data

How the results depend on the processing

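Signs of all 17 called member probe sets held under every alternative tried, but 15 lost their call under at least 1 and 13 lost it without at least 1 array. The exceptions throughout were Wnt7a and the brightest Nkd1 probe set. With 2 member probe sets higher in E10.5-labelled cells and 15 higher in E13.5-labelled cells as reported, leaving out 1 array gave 1 to 2 and 3 to 16. For member genes (2 and 8) it gave 1 to 2 and 3 to 10, for all probe sets (3155 and 2939) 1779 to 2891 and 1158 to 2986, and for the other pathway genes (12 and 19) 5 to 10 and 10 to 19. With no filter, 3 member probe sets were higher in E13.5-labelled cells, 1 and 3 member genes, 1559 and 1160 of all probe sets, and 4 and 9 other pathway genes were called in the 2 directions. A filter at the 70th percentile left 0 member probe sets and 0 member genes higher in E10.5-labelled cells, because Wnt7a and Sfrp4 were then not tested. The mean over probe sets gave 13 member genes higher in E13.5-labelled cells, with no count over all genes beside it. Leaving out replicate 3 of both groups, chosen after the sex-linked signals were seen, gave 1 and 3 member probe sets, 1 and 2 member genes, 830 and 651 of all probe sets, and 3 and 4 other pathway genes. The cause of these losses was not tested. The member genes higher in E13.5-labelled cells numbered 7 to 10 without 1 E10.5-labelled array and 3 without any 1 of the E13.5-labelled arrays. Over all probe sets, calls in that direction numbered 2847 to 2986 and 1158 to 1289 in the same refits.

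The groups share replicate numbers, but same-numbered arrays did not deviate together (correlations -0.03, -0.07 and -0.01). With the replicate number as a block, 7 member probe sets and 5 member genes were higher in E13.5-labelled cells, with 2003 and 1587 of all probe sets and 4 and 11 other pathway genes. Scaling moved the median log2 difference of all tested probe sets little, from -0.09 to -0.10 with quantile normalization and -0.15 with median centring. Precision is limited by 3 arrays a group and by dim signals, with 66 of the 112 member probe sets not tested.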
